A study of Homo sapiens with 12 samples.

Results

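The genes described here code for 10 proteins of the centromere and the kinetochore, namely CENPA, CENPE, CENPF, CENPI, CENPK, CENPM, NDC80, NUF2, SPC24 and SPC25. Their probes were found by the gene name that the scanner files give to each gene probe, which gave 13 probes of 41000 and 10 genes of 29244 gene names. The set was put together with the values of treated against DMSO arrays already known, so those values are given below as a description, without p-values for the 10 genes. HuH-7 cells, a single human hepatocellular carcinoma line with the label p53mutant Y220C in every group, received DMSO, the solvent control, or SLMP53-2 at 28 µM or 42 µM, and were harvested after 24 h. SLMP53-2 is the small molecule that the study tested as a reactivator of mutant p53, and the doses are 2 and 3 times its IC50. The titles and the design give 42 µM for the higher dose, the name used here, while another label of those arrays reads 48 µM. Each group had 4 arrays from separate biological replicates, 12 in all on 5 slides, and every value is the normalized log2 value of a probe on a 1-colour Agilent array.

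Kinetochores are the protein assemblies that tie chromosomes to spindle microtubules in mitosis. CENP-A, a variant of histone H3, marks the centromere, and a constitutive network of CENP proteins sits on it through the cell cycle. This network recruits the KNL1, MIS12 and NDC80 complexes, of which the NDC80 complex binds the microtubule, and an outer corona with motors such as CENP-E forms before chromosomes align. Many of these genes are transcribed mainly in G2 and M phase, so that their RNA is known as a sign of dividing cells. In a bulk sample, fewer cells in these phases and less RNA per cell cannot be told apart.

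Facts of the whole series touch the values as follows. Between 65.0% and 85.0% of the gene spots of an array were well above background. Over all 24250 genes tested, 0 were called lower at 28 µM, and 239 without 28 µM replicate 4. On the 10 genes described here that array lay close to the DMSO arrays. The fold changes of the 10 genes at 28 µM, and the medians and counts of calls at that dose, are also given without it. That choice was made with these values known. The label of the cells was checked against 8 hepatocyte and hepatoma genes, including ALB and AFP, and all 8 were well above background on every array. Of 5 leukocyte genes, PTPRC was well above background on no array and 4 were on all. The mean log2 value of the leukocyte list ran from 7.34 to 7.69 on DMSO, from 6.94 to 7.56 at 28 µM and from 6.98 to 7.25 at 42 µM, and its part in the results was not tested. Of 5 fibroblast and 3 endothelial genes, 2 and 1 were well above background on every array.

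Promoter windows from 250 bases before to 50 bases after the annotated start were taken from RefSeq (GRCh38.p14) and were found for 9 of the 10 genes, all but CENPM. They are shown because most of the genes were lower together, and they were searched on both strands for the letters of 3 elements known from cell cycle promoters. These are the CHR (TTTGAA, or TTCAAA on the other strand), which the DREAM and B-MYB complexes bind, the CCAAT box (CCAAT or ATTGG), which NF-Y binds, and the E2F core (GCGGGAA or TTCCCGC). The CHR letters were in 5 of the 9 windows (55.6%), those of CENPA, CENPF, NDC80, NUF2 and SPC25, beside 15.4% of 27305 windows of all genes. The CCAAT letters were in 5 of 9 windows (55.6%), those of CENPA, CENPF, CENPK, SPC24 and SPC25, beside 35.7% of all windows, and the E2F letters were in 2 (22.2%), CENPA and SPC25, beside 6.56%. Windows of CENPI and CENPE held none of these letters. Each window rests on a single annotated start per gene, and whether HuH-7 cells use that start was not tested. Both CHR and CCAAT letters were in 3 of 9 windows (33.3%), beside 6.08% of all. In 30 windows of other kinetochore genes the shares were 33.3% for CHR, 56.7% for CCAAT, 26.7% for E2F and 23.3% for CHR with CCAAT, those for CCAAT and E2F above the shares of the 9 windows. In CENPA the CHR letters began 18 bases before the start, in NDC80 and SPC25 3 bases before it, with a second match in SPC25 at position −247 from it, and in NUF2 and CENPF 16 and 40 bases after it. The 5 windows printed here, 5′ to 3′ on the strand of the gene and with the matched letters in capitals, are the 3 with both CHR and CCAAT letters, that of CENPE, the gene with the largest difference, and that of CENPK, the gene that was not lower at 42 µM. No matches overlapped, and a match is a description of the letters, not a test of binding. Only these exact letters were searched, so a window without a match may still hold a variant of an element.
CENPA (chr2:26785806-26786105, plus strand): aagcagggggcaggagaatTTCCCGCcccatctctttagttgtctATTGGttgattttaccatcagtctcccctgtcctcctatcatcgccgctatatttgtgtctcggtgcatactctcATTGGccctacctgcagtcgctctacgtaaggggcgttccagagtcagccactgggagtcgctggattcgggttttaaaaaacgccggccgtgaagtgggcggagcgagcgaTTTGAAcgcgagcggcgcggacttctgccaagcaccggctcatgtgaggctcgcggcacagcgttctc
SPC25 (chr2:168890381-168890680, minus strand): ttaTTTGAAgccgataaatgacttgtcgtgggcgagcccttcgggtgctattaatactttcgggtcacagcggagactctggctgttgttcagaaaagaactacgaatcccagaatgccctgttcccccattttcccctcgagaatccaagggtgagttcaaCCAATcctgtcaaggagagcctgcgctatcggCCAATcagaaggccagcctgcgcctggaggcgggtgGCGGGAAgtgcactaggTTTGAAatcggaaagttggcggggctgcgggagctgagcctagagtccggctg
CENPF (chr1:214602945-214603244, plus strand): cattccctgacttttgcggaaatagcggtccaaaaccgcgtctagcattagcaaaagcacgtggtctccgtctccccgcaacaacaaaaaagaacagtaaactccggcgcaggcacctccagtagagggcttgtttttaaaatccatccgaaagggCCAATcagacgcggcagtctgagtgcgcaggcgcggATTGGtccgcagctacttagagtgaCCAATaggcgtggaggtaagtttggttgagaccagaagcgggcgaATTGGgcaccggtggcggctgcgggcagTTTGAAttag
CENPE (chr4:103198294-103198593, minus strand): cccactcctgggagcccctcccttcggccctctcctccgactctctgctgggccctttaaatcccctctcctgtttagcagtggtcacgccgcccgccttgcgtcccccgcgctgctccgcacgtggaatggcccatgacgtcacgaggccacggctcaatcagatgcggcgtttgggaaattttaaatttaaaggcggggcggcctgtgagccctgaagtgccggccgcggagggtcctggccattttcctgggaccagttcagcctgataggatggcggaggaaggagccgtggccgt
CENPK (chr5:65563119-65563418, minus strand): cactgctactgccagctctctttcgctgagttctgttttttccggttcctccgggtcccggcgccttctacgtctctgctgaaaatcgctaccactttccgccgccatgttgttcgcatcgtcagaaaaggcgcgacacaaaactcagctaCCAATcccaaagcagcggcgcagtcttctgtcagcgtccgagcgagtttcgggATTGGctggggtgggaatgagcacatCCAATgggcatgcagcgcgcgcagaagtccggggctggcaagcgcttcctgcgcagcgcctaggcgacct

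CENPA, the histone variant that defines the centromere, was lower at both doses (probe A_24_P413884, chromosome 2 of hg19, 27016914 to 27016973). On DMSO its log2 values were 8.43, 8.71, 8.49 and 8.60, at 28 µM 8.32, 7.94, 7.77 and 8.39, and at 42 µM 7.92, 7.33, 7.77 and 7.85, for replicates 1 to 4 in this and the following sentences. At either dose the treated arrays were all lower than the lowest DMSO array. The mean went from 8.56 ± 0.12 (SD, n = 4) on DMSO to 8.11 ± 0.30 and 7.72 ± 0.27, which are differences of −0.45 (SE 0.16) and −0.84 (SE 0.16) on the log2 scale, or 1.79-fold lower at the higher dose. Without 28 µM replicate 4 the difference at 28 µM was −0.55 (SE 0.17).

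Of the constitutive network, 3 genes are in the set, and at 42 µM their log2 fold changes were smaller in size than those of the other 7. CENPI, a subunit of the CENP-H, -I and -K group, read 7.25, 7.61, 7.73 and 7.56 on DMSO, 7.53, 7.40, 7.09 and 7.88 at 28 µM and 7.01, 6.97, 6.97 and 7.05 at 42 µM on its brighter probe (A_23_P252292, chromosome X, 100416556 to 100417878). The 42 µM arrays had an SD of 0.03 and lay below all arrays of both other groups, while the 28 µM arrays overlapped DMSO. Its log2 fold change was −0.06 (SE 0.16) at 28 µM, −0.19 (SE 0.14) there without replicate 4, and −0.53 (SE 0.16) at 42 µM. The sign at 28 µM turned in 2 of 27 alternatives, with values up to 0.07 when 28 µM replicate 3 was left out. Some of the 27, such as leaving out a 42 µM array, could not move this value. The second CENPI probe (A_24_P419132, chromosome X, 100387440 to 100395708) was well above background on 6 of 12 arrays, and its values of 5.62 to 6.60 overlapped in all groups, with a log2 fold change of −0.20 (SE 0.22) at 42 µM. Both CENPI probes span more than their 60 bases on the genome, so that each crosses an intron.

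CENPK, of the same group, did not show the difference of the others (A_23_P155989, chromosome 5, 64813813 to 64813872). It read 5.63, 6.33, 5.88 and 6.43 on DMSO, 5.88, 6.27, 6.06 and 5.90 at 28 µM and 6.50, 5.86, 5.97 and 6.37 at 42 µM, and all groups overlapped. Its log2 fold change was −0.04 (SE 0.19) at 28 µM, −0.0021 (SE 0.21) there without replicate 4, and 0.10 (SE 0.19) at 42 µM. The sign turned in 4 of 26 alternatives at either dose, with values up to 0.23 at 28 µM and down to −0.04 at 42 µM. The probe was dim, with a mean signal of 1.82 to 2.72 times its local background, and was well above background on 8 of 12 arrays.

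CENPM, another subunit of the network, was lower on average but with overlapping arrays (A_24_P399888, chromosome 22, 42341289 to 42341956, which also crosses an intron). Its values were 8.71, 8.81, 9.23 and 9.17 on DMSO, 8.19, 8.64, 8.71 and 9.08 at 28 µM and 7.80, 8.13, 8.77 and 8.87 at 42 µM. Replicates 1 and 2 of the 42 µM group lay below all DMSO arrays, and replicates 3 and 4 lay within their range. The difference was −0.33 (SE 0.24) at 28 µM, −0.47 (SE 0.25) there without replicate 4, and −0.59 (SE 0.24) at 42 µM on the log2 scale.

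The NDC80 complex, the rod that grips the microtubule end, has 4 subunits. By its brightest probe, each of them was lower on all 4 arrays at 42 µM than on any DMSO array. That was so for 7.0% of all genes, and it is a description, since the genes were chosen with this comparison known. NDC80 itself (HEC1, which carries a microtubule-binding head) read 12.74, 12.70, 12.80 and 12.73 on DMSO, 11.79, 11.74, 11.97 and 12.87 at 28 µM and 11.45, 11.31, 11.77 and 11.66 at 42 µM (A_23_P50108, chromosome 18, 2610798 to 2610857). The DMSO arrays differed by an SD of only 0.04, and of the treated arrays 28 µM replicate 4 alone was not below them. The log2 fold change was −0.65 (SE 0.21) at 28 µM, −0.91 (SE 0.13) there without replicate 4, and −1.20 (SE 0.21) at 42 µM, 2.29-fold lower. Its second probe, which lies across an exon junction nearer the start of the gene (A_24_P14156, chromosome 18, 2577846 to 2578004), read 7.42, 8.07, 8.32 and 8.29 on DMSO and 6.93, 7.07, 7.01 and 7.44 at 42 µM. That probe went the same way, by −0.43 (SE 0.29) and −0.91 (SE 0.29), but its DMSO replicate 1 lay within the range of the 42 µM arrays.

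NUF2, the partner of NDC80 in the outer part of the rod, read 10.21, 10.45, 10.57 and 10.35 on DMSO, 10.21, 9.70, 9.81 and 10.83 at 28 µM and 9.70, 9.53, 9.32 and 9.38 at 42 µM (A_23_P74349, chromosome 1, 163325144 to 163325203). At 28 µM replicate 4 was the highest of all 12 arrays and replicate 1 lay at the lowest DMSO array, whereas all 42 µM arrays lay below both other groups, replicate 1 just below the lowest 28 µM array. The log2 fold change was −0.26 (SE 0.21) at 28 µM, −0.49 (SE 0.15) there without replicate 4, and −0.92 (SE 0.21) at 42 µM, 1.89-fold lower.

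SPC25, which with SPC24 anchors the rod at the inner kinetochore, read 11.58, 11.70, 11.40 and 11.47 on DMSO, 10.56, 10.27, 10.51 and 11.14 at 28 µM and 9.87, 9.74, 10.35 and 10.56 at 42 µM (A_23_P51085, chromosome 2, 169727956 to 169728015). All 8 treated arrays lay below all DMSO arrays, 28 µM replicate 4 among them. The log2 fold change was −0.92 (SE 0.20) at 28 µM, −1.09 (SE 0.19) there without replicate 4, and −1.41 (SE 0.20) at 42 µM, 2.65-fold lower. SPC24 read 9.28, 9.58, 9.92 and 9.67 on DMSO, 8.76, 8.73, 9.19 and 9.74 at 28 µM and 7.67, 8.17, 9.05 and 9.22 at 42 µM (A_24_P314571, chromosome 19, 11256994 to 11257053). Its 42 µM arrays had the widest spread of the set, an SD of 0.73, with replicates 1 and 2 well below replicates 3 and 4. The log2 fold change was −0.51 (SE 0.32) at 28 µM, −0.72 (SE 0.32) there without replicate 4, and −1.08 (SE 0.32) at 42 µM.

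CENPE, the kinesin motor of the corona that carries chromosomes towards the spindle equator, had the largest difference of the set at each dose (A_23_P253524, chromosome 4, 104027339 to 104027398). It read 11.28, 11.40, 11.50 and 11.23 on DMSO, 10.01, 9.74, 10.07 and 11.36 at 28 µM and 9.38, 9.19, 9.69 and 9.86 at 42 µM. At 28 µM replicate 4 lay within the DMSO range and the other arrays lay more than a log2 unit below that range, and at 42 µM all arrays lay below DMSO. The mean went from 11.35 ± 0.12 (SD, n = 4) to 10.30 ± 0.72 and 9.53 ± 0.30, log2 fold changes of −1.06 (SE 0.28) and −1.82 (SE 0.28), 2.08-fold and 3.54-fold lower. Without 28 µM replicate 4 the first was −1.41 (SE 0.16). This probe was printed in 10 spots on each array, of which 8 to 10 were used, and the SD over the spots of an array ran from 0.08 to 0.18.

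CENPF, a large coiled-coil protein of the corona whose RNA and protein build up in G2, read 12.48, 12.93, 13.09 and 13.05 on DMSO, 12.35, 11.87, 12.33 and 12.80 at 28 µM and 12.04, 11.995, 12.40 and 12.14 at 42 µM on its brighter probe (A_23_P401, chromosome 1, 214837308 to 214837367). All 42 µM arrays lay below DMSO, replicate 3 only just below DMSO replicate 1. The log2 fold change was −0.55 (SE 0.19) at 28 µM, −0.71 (SE 0.18) there without replicate 4, and −0.75 (SE 0.19) at 42 µM. The second probe (A_24_P96780, chromosome 1, 214826239 to 214826298) read 6.83, 7.49, 6.58 and 7.73 on DMSO and 6.89, 6.37, 7.07 and 7.24 at 42 µM, with overlapping groups and a log2 fold change of −0.26 (SE 0.25). Its mean signal was only 2.30 to 4.88 times its local background, against 64.9 to 172 times for the brighter probe.

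**Figure D1:**
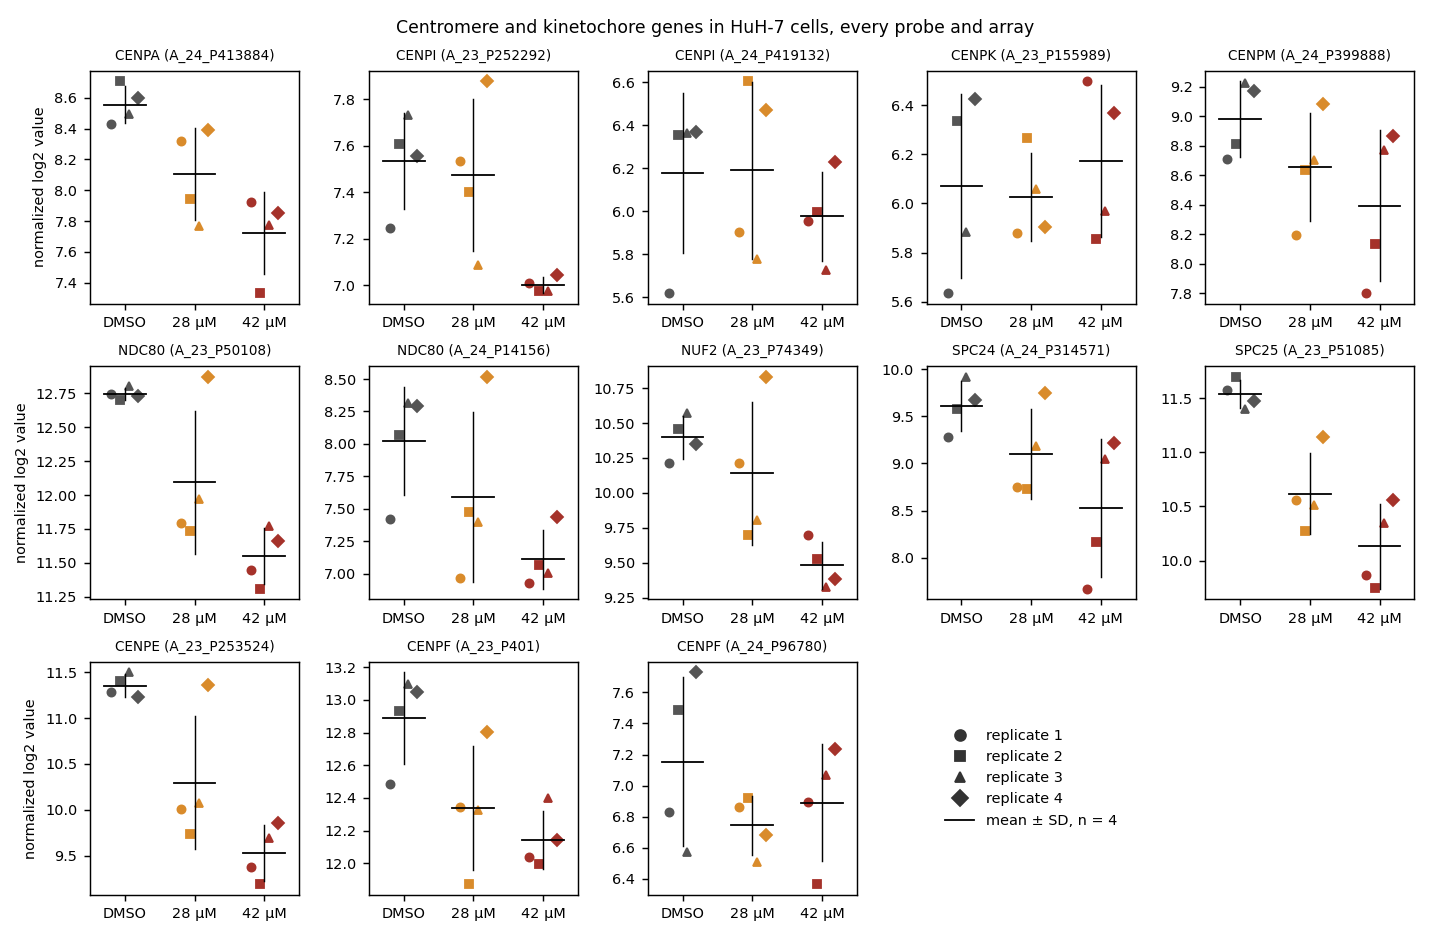
Normalized log2 values of the 13 probes of the 10 genes (vertical axes, each with its own range) on DMSO, at 28 µM and at 42 µM SLMP53-2. Points are single arrays, the shape gives the replicate, and the line and bar are the mean ± SD of 4 arrays. For CENPE the 42 µM arrays lay between 9.19 and 9.86 and the DMSO arrays between 11.23 and 11.50.

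Taken by their brightest probe, 9 of the 10 genes were lower at 42 µM than on DMSO, all but CENPK, whose sign turned in some alternatives. The median of the 10 log2 fold change was −0.88, beside −0.02 over all 24250 genes tested, of which 13155 were lower. In 8 of 10 genes every 42 µM array lay below every DMSO array, which was so for 7.0% of all genes, and the exceptions were CENPM and CENPK. A gene was called lower where limma gave a log2 fold change of −0.6 or beyond and an adjusted p below 0.05. That held for 5 of the 10 genes, CENPA, NDC80, NUF2, SPC25 and CENPE, beside 344 of all genes (1.42%), and nothing is read from this count, since the genes were chosen with it known. SPC24 and CENPF were past the limit of the fold change but not called, and CENPM and CENPI did not reach it. The count was 0 with a block for the slide and also when DMSO replicate 2 or 42 µM replicate 2 was left out. The median of the 10 genes in these settings was −0.91, −0.84 and −0.82, in this order. It was 3 calls without DMSO replicate 1 or 4. The genes that lost their call in any of these settings had log2 fold changes between −1.83 and −0.71. The share of all genes called in these settings is not given here, so the counts alone say nothing particular to the 10 genes.

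At 28 µM all 10 genes had a log2 fold change below 0, from −1.06 for CENPE to −0.04 for CENPK, as had 13238 of all 24250 genes. The median was −0.48 beside −0.02 over all genes. CENPK and CENPI were above 0 in the alternatives given with them. limma called 0 of them and 0 of all 24250 genes (0%) lower, with a smallest adjusted p of 0.115 over all genes and both directions. With the same limit and a p below 0.05 before adjustment, 3 of the 10 and 298 of all genes (1.23%) were lower, and 5 and 530 (2.19%) without replicate 4. CENPA and SPC25 had every 28 µM array below every DMSO array, which held for 2.93% of all genes. Without replicate 4, the median was −0.63 and 3 genes were called, CENPE, SPC25 and NDC80, beside 0.986% of all genes. In that setting 7 of 10 genes had no overlap with DMSO, beside 7.96% of all genes. Replicate 4 was left out because its values lay close to DMSO, which favours calls, so these counts are a description.

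The array means show the place of replicate 4. Averaged over the 10 genes, the deviation from the DMSO mean was −0.61, −0.74 and −0.62 on 28 µM replicates 1 to 3 and 0.03 on replicate 4. At 42 µM it was −1.03, −1.14, −0.76 and −0.67, and the DMSO arrays lay between −0.21 and 0.10. On replicate 4 of the 28 µM group 2 of 10 genes were below the DMSO range, against 7 to 9 on each of the other 7 treated arrays. The share of all genes below that range on each array is not given here, so these counts are a description. The mean of 28 µM replicate 2 was below that of 42 µM replicate 4, so that single arrays of the 2 doses overlapped.

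**Figure D2:**
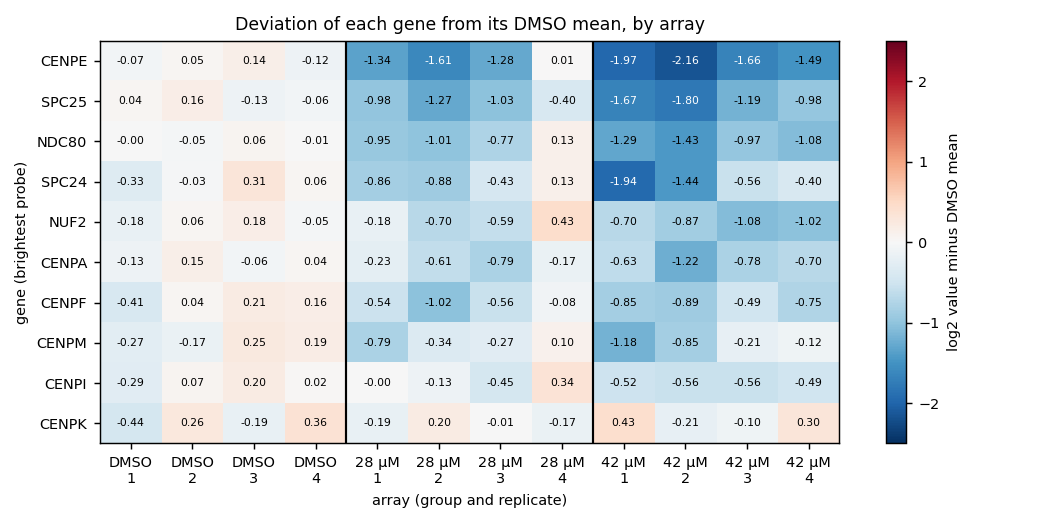
Log2 value of each gene (brightest probe) minus its mean on DMSO, in colour and as a number, for each of the 12 arrays. Genes are ordered by their log2 fold change at 42 µM. CENPE ran from −2.16 to −1.49 at 42 µM, and 28 µM replicate 4 looks like the DMSO columns.

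Between the doses, 9 of the 10 genes were lower at 42 µM than at 28 µM, with a median log2 fold change of −0.48 beside 0.02 over all genes. Of all 24250 genes, 10983 were lower. limma called 0 of the 10 and 0 of all genes (0%) lower, with a smallest adjusted p of 0.9995, and with a p below 0.05 before adjustment and the limit of the fold change 2 of the 10 and 46 of all genes were lower, or 0 and 24 without 28 µM replicate 4. Between the doses, the log2 fold change was −0.77 (SE 0.28) for CENPE, −0.66 (SE 0.21) for NUF2, −0.58 (SE 0.32) for SPC24, −0.54 (SE 0.21) for NDC80 and 0.15 (SE 0.19) for CENPK. NUF2 and CENPI were the genes whose 42 µM arrays lay below every 28 µM array, which was so for 0.920% of all genes. Replicate 4 was not the lowest 28 µM array of either gene. Without 28 µM replicate 4 the median difference was −0.30, with CENPE at −0.41 (SE 0.16) and NUF2 at −0.43 (SE 0.15). The 3 comparisons share arrays.

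The 12 arrays lay on 5 slides, and 3 slides held a DMSO and a 42 µM array. Within these slides the median difference over the 10 genes was −1.15 on slide 2, −1.13 on slide 4 and −0.78 on slide 5, with 9, 10 and 10 of the 10 genes lower at 42 µM. The difference was −1.85, −2.31 and −1.71 for CENPE and −1.61, −1.66 and −1.35 for SPC25 on the same slides. For 28 µM against DMSO the median was −0.28 on slide 1, −0.81 on slide 2 and −0.12 on slide 4, the slide of 28 µM replicate 4, with 9, 10 and 6 of 10 genes lower. For 42 µM against 28 µM it was −0.46 on slide 2 and −1.18 on slide 4 but 0.11 on slide 3, where only 4 of 10 genes were lower at 42 µM. Each of these differences rests on a single pair of arrays, and medians over all genes within a slide are not given here.

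**Figure D3:**
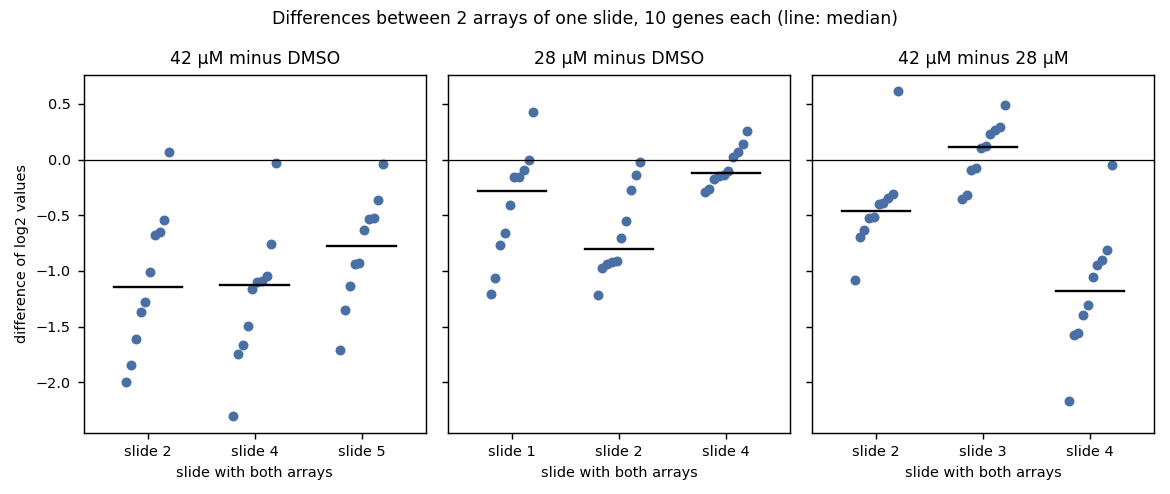
Difference of log2 values between 2 arrays of the same slide (vertical axis) for the 10 genes (points), with the median as a line. The medians of 42 µM minus DMSO lay between −1.15 and −0.78, and that of 42 µM minus 28 µM was 0.11 on slide 3.

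The genes also varied together among arrays of the same group. This does not stand apart from their choice, since 28 µM replicate 4 showed little of the difference they were chosen on. After each array was set against its group mean, the median Pearson correlation over the 45 pairs of genes was 0.60 across the 12 arrays, and 39 pairs were above 0. Single pairs ran from −0.17 to 0.97. Against the mean of the other 9 genes CENPE had the highest correlation (0.92), followed by NDC80 (0.88), SPC25 (0.82) and CENPF (0.81), and CENPK had −0.05. For comparison, of the 24240 genes outside the set the 24198 with a value on all 12 arrays had a median correlation of −0.03 with the mean of the set, with quartiles of −0.29 and 0.27. The correlation drew much on 28 µM replicate 4, on which the mean of the set was 0.52 above its group. Without that array the median over pairs was 0.34. Arrays share slide, labelling and normalization, and the points are only 12.

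Over all 12 arrays, groups included, the genes outside the set whose pattern was most like its mean were KIF11 (Pearson correlation 0.993), CCNB1 (0.983), CA2 (0.982), ANLN (0.980) and PRC1 (0.980). KIF11 codes for a mitotic kinesin, CCNB1 for cyclin B1, CA2 for carbonic anhydrase 2, ANLN for anillin, a protein of the cleavage furrow, and PRC1 for a microtubule bundling protein. Set against the group means their correlations were between 0.93 and 0.98. Their log2 fold changes were −0.80, −0.68, −0.64, −0.52 and −0.53 at 28 µM and −1.36, −1.22, −1.11, −1.09 and −0.92 at 42 µM, in the same order. They were picked for this likeness, which is therefore a description.

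The rest of the kinetochore was read from a list of 36 genes, all of which were tested. The list came from general knowledge of the structures, with earlier results of these data known. Its counts and p-values are therefore a description too. At 42 µM limma called 9 of them lower and 0 higher, beside 1.42% and 1.57% of all genes. A log2 fold change below 0 was found for 33 of 36, beside 13155 of all 24250 genes. The median was −0.43, smaller than the −0.88 of the 10 genes, which were chosen on these values. In 17 of 36 genes every 42 µM array lay below every DMSO array, beside 7.0% of all genes. The count of calls was 0 with a block for the slide and on leaving out DMSO replicate 2 or 42 µM replicate 2, 2 without DMSO replicate 1 or 4, 5 without DMSO replicate 3, 4 without 42 µM replicate 1 and 4 with the processed signal and quantile normalization. The share of all genes called in these settings is not given here.

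Of the 5 genes for CENP-A deposition and centromeric DNA, 1 was called. OIP5, a subunit of the Mis18 complex that prepares the centromere for new CENP-A, fell from 12.05 ± 0.08 to 10.90 ± 0.35 (SD, n = 4 arrays of DMSO and of 42 µM), a change of −1.14 on the log2 scale (SE 0.22, limma adjusted p = 0.0172). HJURP, the chaperone of CENP-A, had −0.94 (SE 0.37) and an adjusted p of 0.220 from limma. The smallest changes were those of CENPB, which binds alpha satellite DNA, at −0.18 (SE 0.36), and MIS18A, at −0.38 (SE 0.20).

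Of the 13 other genes of the constitutive network, 3 were called, and all 13 had a log2 fold change below 0 with a median of −0.59. CENPW, a histone-fold subunit, fell from 13.09 ± 0.08 to 12.19 ± 0.30 (SD, n = 4), a change of −0.90 on the log2 scale (SE 0.17, limma adjusted p = 0.0178). ITGB3BP (CENP-R) fell by 0.70 on the log2 scale (SE 0.17, adjusted p = 0.0421) and CENPQ by 0.66 (SE 0.17, adjusted p = 0.0497). CENPN, which reads CENP-A nucleosomes, had an adjusted p of 0.0349 from limma but missed the limit of the fold change at −0.59 (SE 0.14). CENPT, the partner of CENPW, had −0.07 (SE 0.20), which was 0.12 with a slide block, and CENPS had −0.20 (SE 0.12), the smallest changes of the network.

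Of the 6 genes of the KNL1 and MIS12 complexes, 2 were called, and these were both KNL1 complex genes. ZWINT fell from 12.42 ± 0.11 to 11.29 ± 0.51 (SD, n = 4), a change of −1.13 on the log2 scale (SE 0.25, limma adjusted p = 0.0292). KNL1, the scaffold for checkpoint kinases, fell from 10.46 ± 0.08 to 9.40 ± 0.40, a change of −1.06 (SE 0.19, limma adjusted p = 0.0159). The 4 subunits of the MIS12 complex had log2 fold changes between −0.29 and −0.02, with NSL1 at −0.02 (SE 0.23) and MIS12 at −0.21 (SE 0.14), and none was called.

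Of the 12 genes of the corona and of microtubule coupling, 3 were called, among them 2 of the 3 SKA genes, whose proteins bind microtubules beside the NDC80 complex. SKA3 fell from 10.45 ± 0.10 to 9.35 ± 0.22 (SD, n = 4), a change of −1.10 on the log2 scale (SE 0.16, limma adjusted p = 0.0112), and SKA2 fell by 0.79 on the log2 scale (SE 0.16, adjusted p = 0.0223). SPDL1, a dynein adaptor, fell by 0.66 (SE 0.16, adjusted p = 0.0427). CLASP1 and CLASP2, microtubule plus end proteins with uses outside mitosis, had 0.10 (SE 0.26) and 0.12 (SE 0.10). CLASP1 turned negative in 5 of 27 alternatives, down to −0.10 with array weights. The value of CLASP2 was −0.061 with the processed signal and −0.0088 with Edwards values when arrays were scaled to their 75th percentile. Of genes named for centromere proteins but known for other structures, CENPV had −0.15 (SE 0.15) and CENPBD1 −0.09 (SE 0.16), and CENPJ was not found under that name.

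At 28 µM limma called 0 of the 36 genes, and their median log2 fold change was −0.23, with 29 of 36 below 0 beside 13238 of all 24250 genes. Without 28 µM replicate 4 the median was −0.34 and 4 were called beside 0.986% of all genes. These were OIP5 (−0.97, SE 0.21, adjusted p = 0.0327 from limma), CENPW (−0.77, SE 0.15, adjusted p = 0.0219), SKA2 (−0.70, SE 0.15, adjusted p = 0.0272) and SKA3 (−0.61, SE 0.14, adjusted p = 0.0380). The array was left out because its values lay close to DMSO, which favours calls, so these p-values are a description.

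**Figure D4:**
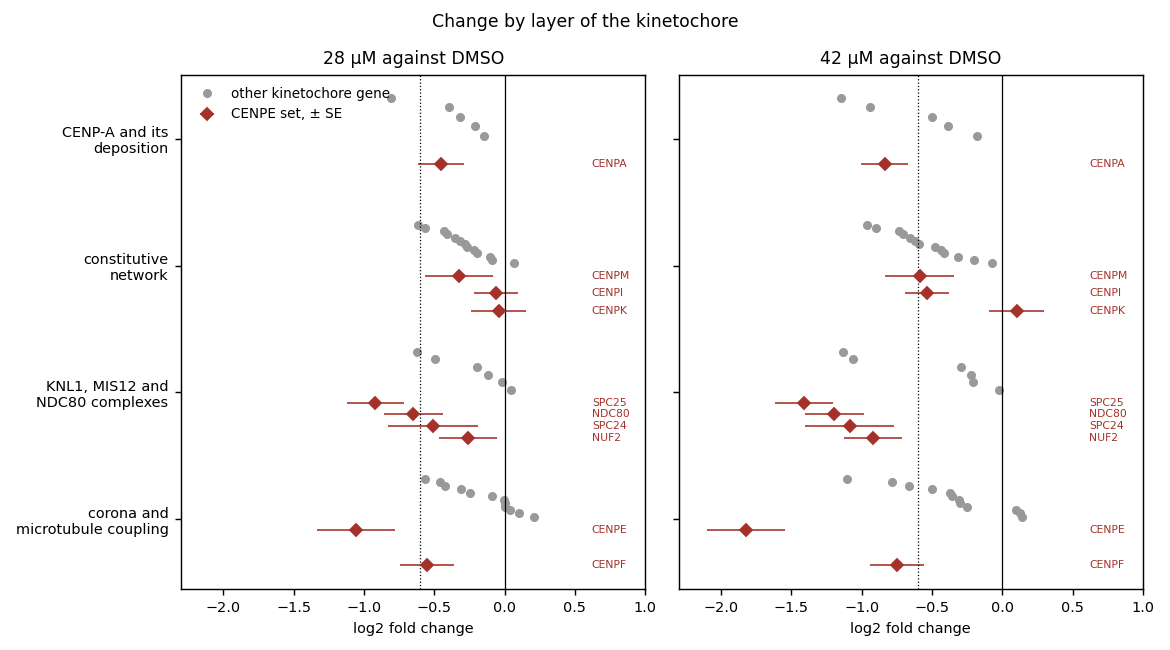
Log2 fold change against DMSO (horizontal axis) at 28 µM (left) and 42 µM (right) by layer of the kinetochore, from the centromere outwards. Diamonds with bars are the 10 genes with their SE from limma, circles are the 36 other kinetochore genes, and the dotted line is the limit of −0.6. The 4 NDC80 complex genes lay between −1.41 and −0.92 at 42 µM and those of the MIS12 complex between −0.29 and −0.02.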

How the data were processed

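RNA of HuH-7 cells was measured on 12 one-colour Agilent arrays. The authors deposited the mean and background intensities of every spot, as extracted from the scans by Agilent Feature Extraction (10.7.3.1 per the file headers, another version in the methods) and not yet normalized. The authors also deposited log2 values after their own background correction and quantile normalization. Without control and outlier-flagged spots, the signals were corrected by the Edwards method and quantile normalized in limma 3.58.1 (R 4.3.3, data.table version 1.17.8) after the study's methods, and spots of a probe were averaged. The result correlated at 0.999 or more with the authors' log2 values of the same array. A probe was tested if well above background on at least 2 arrays of a group, which left 33467 of 41000. Gene names came from the RefSeq accession for 28078 probes and from the array's design otherwise. The 10 genes were taken by the design's name. The brightest probe stands for a gene.

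A model of the 3 groups was fitted to all arrays with lmFit and eBayes, two-sided, with Benjamini-Hochberg adjustment over all probes tested. A call needs a log2 fold change of 0.6 or more in size and an adjusted p under 0.05, the limits of the results section; the methods' 2-fold limit was an alternative. The genes, the lists and the tests were chosen with earlier results of these data known. Named are all 10 genes, and by list the 3 called genes of largest change and the 2 of smallest change, others being named after their values were seen; the 5 genes most like the set are also named. The number of arrays limits the precision. Probe positions are of hg19, and which exon or untranslated region they lie in was not analysed here. Alternatives were other background corrections and scalings, the authors' values, other filters, a block for the slide (fixed or random) or for the replicate number, array weights, a model of only the compared groups, other fold limits, the probe of smallest p, and leaving out each array in turn. Fits were tested on simulated data. Motifs and plots were made with Python 3.11.15, pandas 2.3.3, numpy 2.4.6 and matplotlib 3.10.9.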

Additional observations from a re-analysis of the deposited data

Results flagged for a closer look

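One value stood far from the others of its group. On the second CENPI probe (A_24_P419132), DMSO replicate 1 read 5.62 on the log2 scale against 6.35, 6.37 and 6.37 on the other DMSO arrays, a gap of 0.976 of the range of the group. The probe was well above background on 6 of 12 arrays. It was the only such value among 39 groups of 4 arrays, and chance flags about 1 in 20 groups.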

How the results depend on the processing

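The medians of the 10 genes and of the 36 other kinetochore genes against DMSO, the median of the 10 genes between the doses, and the correlation among the 10 genes moved by less than 1 replicate SD (for the correlation, the SD over genes) in every alternative that was run. Leaving out each array in turn gave medians of the 10 genes from −0.63 to −0.39 at 28 µM, from −0.93 to −0.82 at 42 µM and from −0.55 to −0.30 between the doses, medians of the other kinetochore genes from −0.34 to −0.20 and from −0.49 to −0.37, and a correlation from 0.34 to 0.64. Counts of calls moved more. At 42 µM, of the 10 genes 5 were called and of the other kinetochore genes 9. A slide block gave 0 and 0, a log2 limit of 1 gave 3 and 4, and the processed signal with quantile normalization gave 4 of the other genes. Leaving out each array gave 0 to 6 and 0 to 11 calls at 42 µM and 0 to 3 and 0 to 4 at 28 µM, where the calls came without replicate 4. Between the doses the count was 0 in each. Among alternatives, the share of all genes called is given here only for 28 µM without replicate 4. The cause of these moves in the counts was not tested. CENPE, NDC80 and SPC25 kept their call at 42 µM in 24 of 27 alternatives, CENPA in 21 and NUF2 in 15, and CENPF was called in 9 and SPC24 in 2. Of 34 genes followed, 10 changed sign in some alternative at 28 µM, 42 µM or both, and none of these was called in any setting with either sign. Other fold limits, or leaving out an array of the dose not compared, cannot change a fold change. Counts of alternatives in which a sign turned therefore include some that could not turn it. The farthest values across 0 at 42 µM were 0.13 for NSL1 (without DMSO replicate 4), 0.12 for CENPT (slide block), 0.12 for CENPB (without 42 µM replicate 1), −0.10 for CLASP1 (array weights), −0.04 for CENPK and 0.02 for CENPBD1 (both without DMSO replicate 1), and at 28 µM 0.23 for CENPK (processed signal, 75th percentile), −0.22 for CLASP1 (array weights) and 0.14 for CENPB (without 28 µM replicate 1), while CENPI, CENPS and MIS12 crossed 0 by 0.07 or less. CLASP2 turned at 42 µM when arrays were scaled to their 75th percentile, with the processed signal (−0.061) and with Edwards values (−0.0088), and at 28 µM with the former (−0.00044). No scaling moved the median of all genes by over 0.1.

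Same-numbered arrays of different groups had correlations of their deviations from −0.46 to 0.62, over 0.1 in 7 of 12 pairs. That held for 5 of 9 pairs of the same slide and for 7 of 28 pairs that shared neither. Of the 12 arrays, 5 were closest to an array of their own number. The main model did not take the numbers as pairs, and these values do not settle whether they are. A replicate block gave 7 calls among the 10 genes and 12 among the other kinetochore genes at 42 µM, and the share of all genes called there is not given here. Dim probes limit CENPK and the second probes of CENPI and CENPF.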
